A study of Mus musculus with 9 samples.

Results

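Planar cell polarity is the coordination of cells within the plane of a tissue. In vertebrates it rests on a small set of conserved transmembrane and cytoplasmic proteins: the atypical cadherins Celsr1, Celsr2 and Celsr3, the Frizzled receptors Fzd3 and Fzd6, the tetraspan proteins Vangl1 and Vangl2, the LIM-domain proteins Prickle1 and Prickle2, and the pseudokinase receptor Ptk7. Celsr proteins bind each other across cell borders, Fzd and Vangl-Prickle complexes gather on opposite sides of each cell, and the asymmetry is read by Dishevelled and the cytoskeleton. In the neural tube the pathway is known for its role in convergent extension and closure, and in the hindbrain and spinal cord for guiding migrating neurons and growing axons. The 10 genes that encode these proteins were chosen by name as core genes of the pathway, and each was read by 1 feature of the array that the platform annotation pairs with that gene alone. They are 10 of the 22180 genes that could be tested.

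Total RNA was taken from spinal cords of mouse embryos dissected at e11.5, when V2 interneurons have started to migrate, and hybridised to Affymetrix whole-transcript arrays, 1 array per cord. The groups were 5 control embryos, whose genotype the labels do not give further, and 4 compound mutants of *Hnf6* (*Onecut1*) and *Oc2* (*Onecut2*), *Hnf6-/-;Oc2-/-*, called OC mutant here. The Onecut genes encode transcription factors found in several classes of spinal neurons, and the arrays were made to find genes that act downstream of them in interneuron differentiation and positioning. No source used here gives the strain, and nothing says whether the embryos shared litters, so p-values measure only the spread between these cords. Array medians ran from 5.23 to 5.31 on the log2 scale.

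The arrays were first looked at for genotype, tissue and sex. *Onecut2* differed by −0.84 and *Onecut3* by −0.81 on the log2 scale, OC mutant minus control, with every mutant array below every control array, while *Onecut1* differed by −0.11, with overlapping groups. *Onecut3* is not one of the 2 mutated genes, and the authors describe its expression as lost from the developing spinal cord of these mutants. For *Onecut1* and *Onecut2*, the position of the probes relative to the mutated part of the gene is not known here. Of 11 measured regional genes of the spinal cord, 8 lay above the median of all features on every array. Their difference between groups was below 0 for 10 of the 11 (median −0.19), with 2 of them, *Foxa2* and *Mnx1*, at an unadjusted p of limma under 0.05 (*Mnx1* is named after its value was seen). The mean of 14 neuron genes ran from 9.69 to 10.33 in control and from 9.65 to 10.27 in OC mutant cords, lowest in control 1 and OC mutant 3. That of 12 neural progenitor genes ran from 8.996 to 9.17 in control and from 8.99 to 9.18 in OC mutant cords. The mean of 10 mesenchyme and cartilage genes, a tissue that surrounds the cord, spanned 6.83 to 8.14 in control cords, where control 1 was highest, and 6.84 to 7.64 in OC mutant cords. Between groups, 12 of the 14 neuron genes had a difference below 0 (median −0.12), as did 9 of the 10 mesenchyme and cartilage genes (median −0.09), 7 of 8 muscle genes (median −0.22), all 4 measured genes of sensory ganglia and neural crest (median −0.27) and all 3 measured blood genes (median −0.29). Of the 12 neural progenitor genes 6 lay below 0 and 6 above (median −0.01), and of 7 endothelium genes 5 lay below 0 (median −0.05). Over all 22180 genes tested, 10804 lay below 0. The part of the regional, muscle, ganglion, endothelium and blood genes in the members' values was not tested. The mean of 3 Y-linked genes was 3.52 in control 2 and 3.77 in control 3, and between 8.10 and 8.32 in the other 7 cords, so that all 4 mutants but only 3 of 5 controls showed male signal. The spinal cord is a mixed tissue, and in such bulk RNA fewer cells of a type and less RNA per cell cannot be told apart.

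The start regions of the members give their sequence context. RefSeq promoter windows of assembly GRCm38.p6, which run from 250 bases before to 50 after an annotated transcript start, were matched by symbol for 6 of the 10 genes, with 10 windows in all. They were *Celsr2*, *Celsr3*, *Vangl2*, *Prickle1*, *Prickle2* and *Ptk7*. Below are the 250 upstream bases of *Celsr2* and *Celsr3*, shown because these genes varied together between cords, and those of the 1 *Prickle2* window that holds a core of the Onecut binding motif. Each is printed 5′ to 3′ in the direction of transcription. Capitals mark the GC box GGGCGG or its reverse complement CCGCCC, and, in *Prickle2*, also ATTGAT, the reverse complement of the Onecut core ATCAAT.
Celsr2, chr3:108415580-108415829, minus strand: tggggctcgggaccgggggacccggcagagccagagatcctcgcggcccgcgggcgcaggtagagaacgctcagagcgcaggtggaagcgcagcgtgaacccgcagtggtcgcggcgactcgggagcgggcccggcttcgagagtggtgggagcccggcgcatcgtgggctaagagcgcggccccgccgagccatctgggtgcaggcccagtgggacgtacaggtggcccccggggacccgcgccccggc
Celsr3, chr9:108825795-108826044, plus strand: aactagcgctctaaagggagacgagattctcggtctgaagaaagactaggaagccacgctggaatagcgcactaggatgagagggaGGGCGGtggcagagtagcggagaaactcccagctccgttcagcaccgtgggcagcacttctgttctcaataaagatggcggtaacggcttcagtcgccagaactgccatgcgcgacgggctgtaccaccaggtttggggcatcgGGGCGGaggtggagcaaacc
Prickle2, chr6:92481393-92481642, minus strand: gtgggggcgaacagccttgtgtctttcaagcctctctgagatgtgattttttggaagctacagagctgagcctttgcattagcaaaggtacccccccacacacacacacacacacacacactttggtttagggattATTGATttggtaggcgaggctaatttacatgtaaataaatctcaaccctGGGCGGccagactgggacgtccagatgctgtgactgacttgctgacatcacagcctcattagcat
The *Celsr2* stretch was 75.2% G and C and held no GC box, whereas that of *Celsr3* was 58.0% G and C and held 2. In *Prickle2* the ATTGAT begins 114 bases before the start. Both strands were searched. ATCAAT stood in 1 of the 10 member windows and in 7.54% of all 32851 windows. ATCGAT, another Onecut core, stood in 0 of 10 and in 0.925% of all windows, and the octamer ATGCAAAT, which POU factors such as Pou2f2 bind, in 0 of 10 and in 1.74%. GGGCGG was found in 8 of 10, windows of *Celsr3*, *Vangl2*, *Prickle1*, *Prickle2* and *Ptk7*, and in 35.7% of all windows. Windows of 1 gene, as for *Prickle2* with its several starts, are not independent of each other.

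The largest positive differences among the members belonged to the Celsr cadherins and *Fzd3*, but none of the 10 genes passed the adjusted p of limma. At an unadjusted p under 0.05, *Celsr1* and *Fzd3* read higher in OC mutant cords, 1.28-fold and 1.22-fold, and 0 members read lower. In all, the difference was above 0 for 7 members and below 0 for 3, with a median of 0.06. Among all genes it was above 0 for 11376 and below 0 for 10804, with a median of 0.00. Over all genes, 0.0225% passed the adjusted p, 4.81% were higher and 4.93% lower at the unadjusted p. For all 10 members the groups overlapped. Among all genes, 3.94% had groups that did not.

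**Figure D1:**
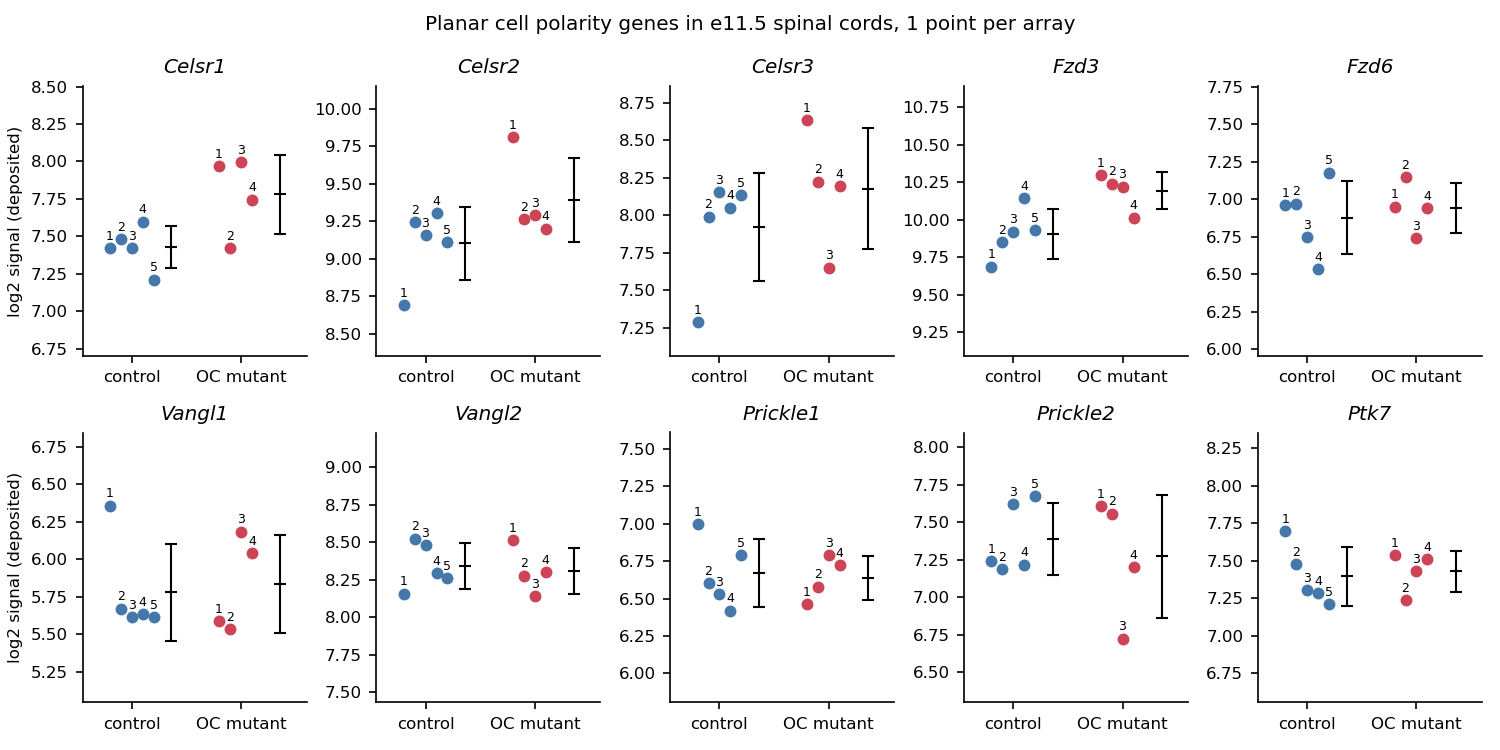
Deposited log2 signal of the 10 core planar cell polarity genes on each array, with control arrays in blue and OC mutant arrays in red, numbered by replicate. Bars beside the points give the mean and SD (n = 5 and n = 4), and each panel spans the same number of log2 units around its own gene, so heights are to be compared within a panel and spreads between panels. For *Celsr1*, *Celsr3* and *Fzd3*, 3 of 4 mutant arrays lie above all controls.

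Celsr1 is the family member known for planar polarity in epithelia, the neural plate included. *Celsr1* (feature 17320103) had log2 values of 7.42, 7.48, 7.42, 7.60 and 7.21 in controls 1 to 5, and 7.97, 7.42, 7.99 and 7.74 in OC mutants 1 to 4. Mutants 1, 3 and 4 lay above every control, whereas mutant 2 sat among them. The means were 7.43 ± 0.14 (SD, n = 5) and 7.78 ± 0.26 (SD, n = 4). The log2 fold change was 0.35 (SE 0.13, 95% interval 0.07 to 0.63), with an adjusted p of 0.417 in limma. Ranked by p it stood at position 922 of all genes, and the exact two-sided permutation test gave p = 0.0556, where the smallest that 5 arrays against 4 allow is 0.00794. Without OC mutant 3 the difference was 0.28 with an unadjusted limma p of 0.0570, and without OC mutant 1 it was 0.29 with 0.0573, so that either array decided the unadjusted call. Without control 1 and OC mutant 3, the cords lowest in neuron genes, it was 0.28 with an unadjusted limma p of 0.0788.

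Celsr2 and Celsr3 act mostly in the nervous system, where Celsr2 takes part in neuron migration and ependymal polarity and Celsr3, together with Fzd3, in the growth of axon tracts. *Celsr2* (feature 17409284) read 8.69, 9.24, 9.16, 9.30 and 9.11 in controls 1 to 5, and 9.81, 9.26, 9.29 and 9.20 in OC mutants 1 to 4. Only mutant 1 exceeded the control range, and control 1 was the lowest cord. The difference was 0.29 (SE 0.15, 95% interval −0.05 to 0.63, adjusted p = 0.569 in limma, exact permutation p = 0.111). It was 0.15 without OC mutant 1.

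For *Celsr3* (feature 17521934) the control values were 7.29, 7.99, 8.15, 8.05 and 8.13, and the OC mutant values 8.64, 8.22, 7.65 and 8.19. Mutants 1, 2 and 4 lay above every control, and the low cord in each group was the one with the lowest neuron genes, control 1 and mutant 3. The log2 fold change was 0.25 (SE 0.21, 95% interval −0.21 to 0.72, adjusted p = 0.739 in limma, exact permutation p = 0.333). This value rested on single cords: it was 0.09 without control 1 and 0.43 without OC mutant 3.

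Fzd3 and Fzd6 are the Wnt receptors of the core module and act redundantly in closure of the mouse neural tube, and Fzd3 is required for several axon tracts. *Fzd3* (feature 17307738) had log2 values of 9.69, 9.85, 9.92, 10.14 and 9.93 in controls 1 to 5, and 10.30, 10.24, 10.22 and 10.01 in OC mutants 1 to 4. Mutants 1, 2 and 3 exceeded every control, and mutant 4 was passed by control 4 alone. Means were 9.91 ± 0.17 (SD, n = 5) and 10.19 ± 0.12 (SD, n = 4). The log2 fold change was 0.29 (SE 0.11, 95% interval 0.06 to 0.52), with an adjusted p of 0.425 in limma, rank 1014 and an exact permutation p of 0.0397.

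Its unadjusted limma p was 0.0194 with all cords and 0.0542 without OC mutant 1, where the difference was 0.25. With the cords of male signal alone it was 0.27 (unadjusted p of limma 0.0725), and without control 1 and OC mutant 3 it was 0.22 (unadjusted p of limma 0.0804). *Fzd6* (feature 17311179) spanned 6.53 to 7.18 in control and 6.74 to 7.15 in OC mutant cords, so that the mutants lay wholly within the control range. Its difference was 0.07 (95% interval −0.23 to 0.36, adjusted p = 0.912 in limma).

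On the opposite side of the cell, Vangl1 and Vangl2 recruit the Prickle proteins, and loss of Vangl2 in the mouse leaves the neural tube open. *Vangl2* (feature 17229795) read 8.16, 8.52, 8.48, 8.30 and 8.26 in controls 1 to 5, and 8.52, 8.28, 8.14 and 8.30 in OC mutants 1 to 4. The groups were interleaved, with a difference of −0.04 (SE 0.11, 95% interval −0.27 to 0.20, adjusted p = 0.948 in limma). *Vangl1* (feature 17408563) had 6.36 in control 1 and 5.61 to 5.67 in the other 4 controls, and 5.58, 5.53, 6.18 and 6.04 in OC mutants 1 to 4. Cords thus fell into a low and a high range in both groups, and the difference between groups was 0.06 (SE 0.18, 95% interval −0.35 to 0.46, adjusted p = 0.951 in limma).

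Prickle1 and Prickle2 bind Vangl proteins and oppose Dishevelled, and Prickle1 is needed for the migration of facial motor neurons in zebrafish. *Prickle1* (feature 17320720) spanned 6.42 to 6.99 in control, highest in control 1, and 6.46 to 6.79 in OC mutant cords, with a difference of −0.03 (95% interval −0.30 to 0.24, adjusted p = 0.965 in limma). *Prickle2* (feature 17469121) had 7.24, 7.19, 7.62, 7.22 and 7.67 in controls 1 to 5, and 7.61, 7.56, 6.72 and 7.20 in OC mutants 1 to 4. Mutant 3 was the lowest cord of all. The difference was −0.12 (SE 0.18, 95% interval −0.52 to 0.29, adjusted p = 0.883 in limma), and without mutant 3 it was 0.07.

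Ptk7 has a kinase-like domain without activity and interacts genetically with Vangl2 in closure of the mouse neural tube. *Ptk7* (feature 17345475) spanned 7.21 to 7.70 in control, again highest in control 1, and 7.24 to 7.54 in OC mutant cords. Its difference was 0.03 (SE 0.11, 95% interval −0.22 to 0.28, adjusted p = 0.955 in limma). For *Fzd6*, both Vangl and both Prickle genes and *Ptk7*, the 95% intervals ran within −0.52 to 0.46 on the log2 scale, and a p that misses the threshold does not show that the groups were alike.

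Further genes of the pathway were read from 4 lists chosen by role. Of 54 genes on them 50 were measured. Their difference was above 0 for 29 and below 0 for 21, with a median of 0.03. Of these, 0 passed the adjusted p of limma, while 5 were higher and 2 lower at the unadjusted p, beside the shares of all genes given above. Genes are named below by this p, so groups that do not overlap and small exact p-values are no further evidence. Among all genes 3.94% had groups that did not overlap, and the number among these 50 is not given here. Among 11 Wnt ligands, co-receptors and other Frizzled receptors (6 positive, 5 negative, median 0.00), 0 passed even the unadjusted p in either direction. The smallest p belonged to the Wnt5a co-receptors *Ror2* and *Ror1*, with log2 fold changes of 0.23 (adjusted p = 0.669 in limma) and 0.25 (adjusted p = 0.758).

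Of 18 cytoplasmic partners, such as Dishevelled, Scribble and sorting proteins, 16 were measured, 8 in each direction, with a median of −0.02. *Gipc1*, a PDZ protein that binds Vangl2 and links cargo to myosin VI, had log2 values of 8.89, 8.91, 8.85, 8.99 and 8.73 in controls 1 to 5, and 8.50, 8.31, 8.57 and 8.54 in OC mutants 1 to 4. Every mutant lay below every control. The log2 fold change was −0.39 (SE 0.09, adjusted p = 0.233 in limma, exact permutation p = 0.00794), at rank 97 of all genes. *Sec24b*, the COPII coat subunit that exports Vangl2 from the endoplasmic reticulum, spanned 8.55 to 8.80 in control and 8.82 to 8.98 in OC mutant cords. Its groups did not overlap either, and it differed by 0.22 (SE 0.08, adjusted p = 0.436 in limma, exact permutation p = 0.0159). *Ankrd6*, the homologue of fly Diego, differed by 0.23 (SE 0.09, adjusted p = 0.464 in limma, exact permutation p = 0.0397), with 3 of 4 mutants above all controls.

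The giant cadherins of the Fat and Dachsous system form a parallel polarity module. All 6 listed genes were measured, and the difference was above 0 for 5 of them and below 0 for 1, with a median of 0.14. *Dchs2* read 6.15, 6.88, 6.97, 6.94 and 6.75 in controls 1 to 5, and 7.27, 7.17, 7.22 and 7.04 in OC mutants 1 to 4. All mutants lay above all controls, of which control 1 was far the lowest. The difference was 0.44 (SE 0.16, adjusted p = 0.412 in limma, exact permutation p = 0.0238). *Fat4* differed by 0.31 (SE 0.13, adjusted p = 0.469 in limma, exact permutation p = 0.0635), with 3 of 4 mutants above all controls. *Fjx1*, the homologue of the fly kinase Four-jointed that modifies Fat and Dachsous, was the 1 with a negative value. It differed by −0.25 (SE 0.10, adjusted p = 0.470 in limma, exact permutation p = 0.0476), and 3 of 4 mutants lay below all controls.

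Among ciliary and cytoskeletal effectors 17 of 19 genes were measured, 10 positive and 7 negative, with a median of 0.03. *Intu*, a CPLANE subunit that links polarity to the base of the cilium, spanned 6.32 to 6.50 in control and 6.60 to 6.71 in OC mutant cords. The groups did not overlap, and the difference was 0.24 (SE 0.08, adjusted p = 0.367 in limma, exact permutation p = 0.00794). It was the only effector at an unadjusted p under 0.05.

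**Figure D2:**
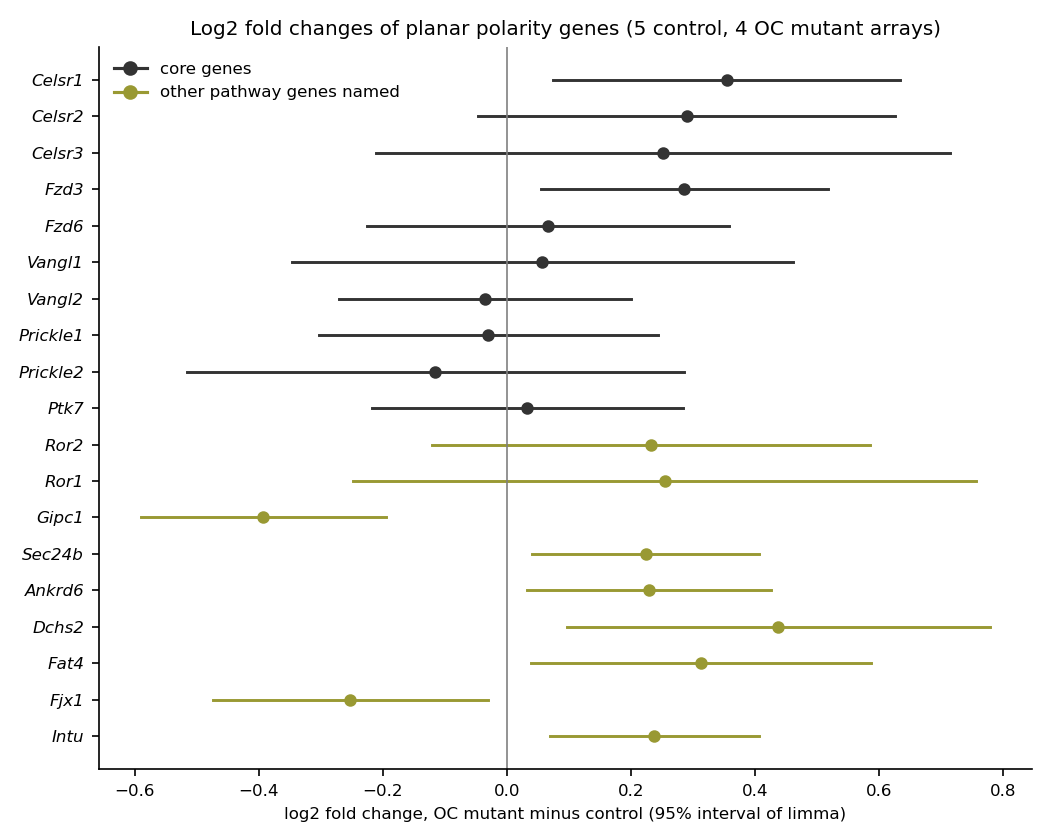
Log2 fold changes, OC mutant minus control, of the 10 core genes (black) and of the 9 other pathway genes named by the rule (olive), with the 95% interval of limma over 5 control and 4 OC mutant arrays. The intervals of *Celsr1* (0.07 to 0.63) and *Fzd3* (0.06 to 0.52) lie above 0, those of the other 8 core genes include it, and no gene shown passed the adjusted p.

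The members also varied between cords of 1 genotype. After the group mean was taken off each value, 45 pairs of members were compared over the 9 arrays. *Celsr2*, *Celsr3* and *Vangl2* deviated together (r = 0.79 for *Celsr2* and *Celsr3*, 0.78 for *Celsr3* and *Vangl2*, 0.74 for *Celsr2* and *Vangl2*), and *Fzd3* went with *Celsr2* at 0.74. *Vangl1* and *Prickle1* deviated together at 0.82, and *Ptk7* went with *Vangl1* at 0.70. *Vangl1* and *Prickle1* deviated against *Celsr2*, *Celsr3*, *Vangl2* and *Fzd3*, from −0.90 for *Celsr3* and *Vangl1* to −0.66 for *Vangl1* and *Vangl2*. *Ptk7* did so less evenly, with −0.65 for *Fzd3* but −0.28 for *Celsr2* and −0.03 for *Vangl2*. *Celsr1* and *Fzd6* deviated against each other at −0.76. The member most like *Celsr1* was *Ptk7*, at 0.45, and that most like *Fzd6* was *Prickle2*, at 0.53. These are descriptions over arrays that share the cords and their composition.

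The same deviations were set against the neuron and progenitor gene means, 20 relations in all, with exact permutation tests within groups and adjustment over the 20. *Vangl1* was higher where neuron genes were lower (r = −0.91, exact p = 0.00174, adjusted 0.0347, and Spearman rho = −0.93, exact p = 0.00139, adjusted 0.0278). Without control 1 and OC mutant 3, the cords farthest from the median, r was −0.65 with an unadjusted exact p of 0.333. The smallest exact p that the 7 cords left allow is 0.00694, too large for a single relation to pass the adjustment over 20, so no adjusted p is given without these cords. *Celsr3* followed the neuron genes with r = 0.80 (exact p = 0.0181, adjusted 0.146, rho = 0.67, exact p = 0.0764), and r was 0.06 without the same cords. *Prickle2* had r = 0.78 (exact p = 0.0219, adjusted 0.146, rho = 0.68, exact p = 0.0733), and kept 0.78 without them. *Ptk7* had r = −0.75 (exact p = 0.0333, adjusted 0.167, rho = −0.67, exact p = 0.0847), and −0.72 without them. For the other 16 relations, all those with progenitor genes included, the exact p was above 0.05.

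A further 10 relations were added after the values were seen, and their adjusted p was taken over these 10 alone. No adjustment was made over them and the earlier relations together, so the adjusted values do not count all relations looked at. All 10 were with the mesenchyme and cartilage gene mean. *Fzd3* was lower where this mean was higher (r = −0.94, exact p = 6.94e-04, adjusted 0.00694, rho = −0.88, exact p = 0.00278), and r was −0.90 without control 1 and OC mutant 4, the cords farthest from the median, with an unadjusted exact p of 0.0139. For *Celsr2* r was −0.83 (exact p = 0.00486, adjusted 0.0243, rho = −0.77, exact p = 0.0243), and −0.56 without them, with an unadjusted exact p of 0.243. *Prickle1* was higher where the mean was higher (r = 0.85, exact p = 0.00868, adjusted 0.0289, rho = 0.85, exact p = 0.00833), and 0.81 without them, with an unadjusted exact p of 0.0694. *Vangl1* had r = 0.86 (exact p = 0.0260, adjusted 0.0651, rho = 0.78, exact p = 0.0431), and r was 0.57 without them, with an unadjusted exact p of 0.188. *Celsr3* had r = −0.71 (exact p = 0.0625, adjusted 0.104, rho = −0.75, exact p = 0.0306), and −0.60 without them. *Ptk7* had r = 0.73 (exact p = 0.0608, adjusted 0.104, rho = 0.48, exact p = 0.236), and 0.16 without them. *Celsr1* had r = −0.09 (exact p = 0.802, rho = −0.08, exact p = 0.846). For *Fzd6*, *Vangl2* and *Prickle2* r was 0.25, −0.46 and −0.34, with exact p of 0.585, 0.253 and 0.374.

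**Figure D3:**
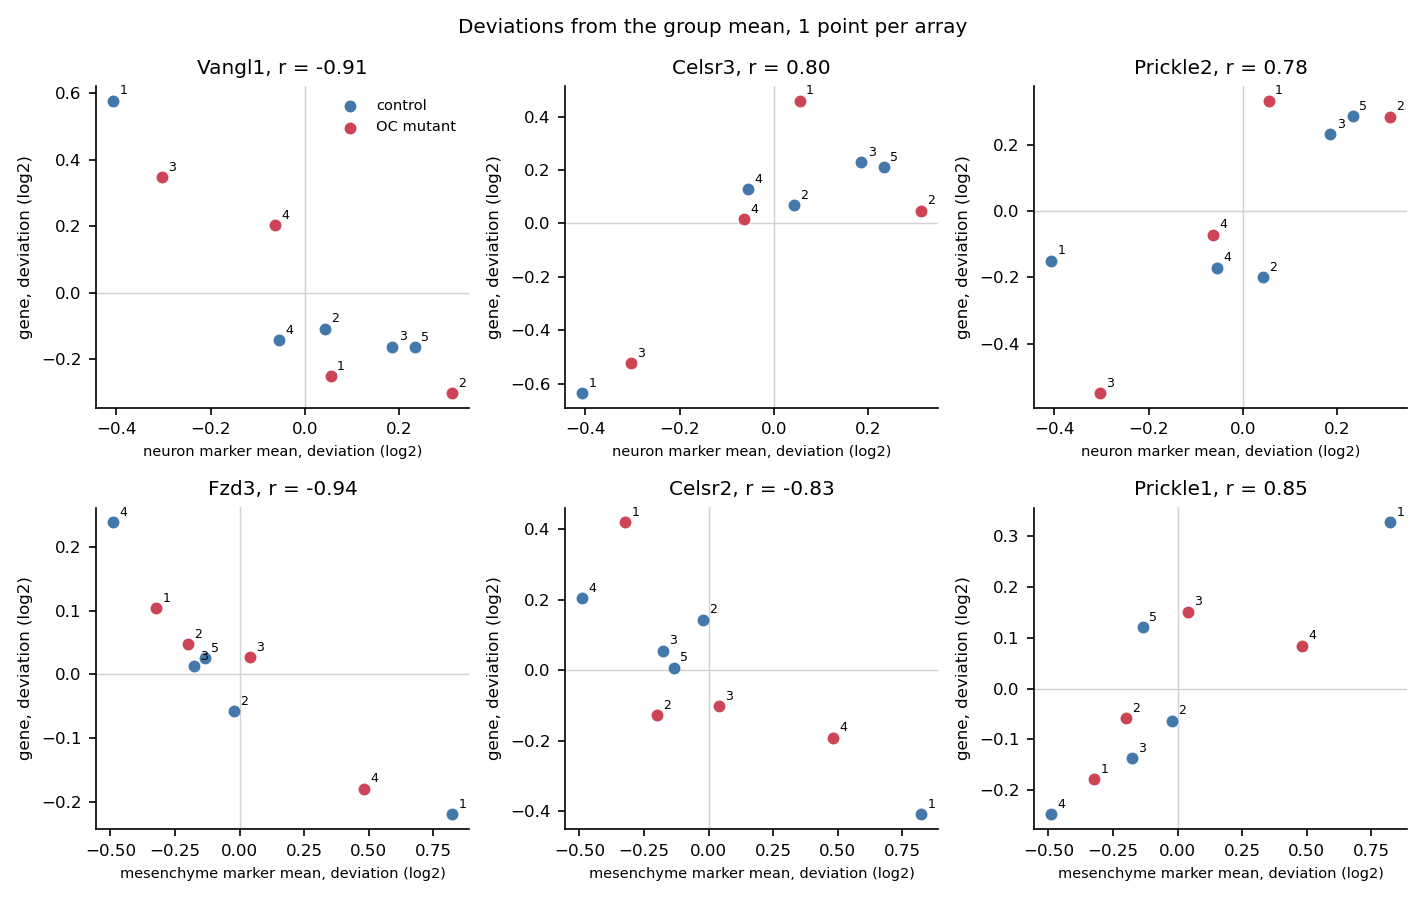
Deviation of 6 members from the group mean of the array (vertical axis, log2) against the deviation of the neuron gene mean (upper row) or the mesenchyme and cartilage gene mean (lower row), 1 numbered point per array, control blue and OC mutant red. Control 1 lies at the end of every panel's horizontal axis, and the Pearson r in each title is that of the text, from −0.94 for *Fzd3* to 0.85 for *Prickle1*.

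With the mesenchyme and cartilage mean as a covariate, the genotype difference of *Fzd3* was 0.24 (unadjusted p of limma 0.0127) and that of *Celsr1* 0.35 (unadjusted p of limma 0.0244), while *Celsr2* had 0.22 and *Celsr3* 0.16. With the difference of the progenitor and neuron means as a covariate, the values were 0.31 for *Fzd3*, 0.29 for *Celsr1*, 0.33 for *Celsr2* and 0.37 for *Celsr3*. These 4 genes had a positive difference under each of the 24 alternatives tried, and in each the adjusted p stayed above 0.05. They are the members with the largest positive differences, and the alternatives refit the same arrays, so the kept sign is no separate evidence. All 10 members span more of the genome than the median gene (16.2 kb), and the median log2 fold change of the 25% of genes with the longest span was 0.04. When a trend with gene span was removed from each array, *Celsr1* differed by 0.31 and *Fzd3* by 0.25.

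By likeness over the 9 arrays, the 3 genes nearest to *Celsr1* among 22179 were *Lockd* (r = 0.99), *Ccna2* (r = 0.96), which encodes cyclin A2, and *Ankle1* (r = 0.96). Nearest to *Fzd3* were *Nsd2* (r = 0.98), which encodes a histone methyltransferase, *Dkk4* (r = 0.95), which encodes a secreted Wnt inhibitor, and *Mctp1* (r = 0.94). These values include the difference between groups, and they are the highest among all genes compared over only 9 arrays.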

How the data were processed

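The authors labelled total RNA of e11.5 spinal cords with the WT PLUS kit, hybridised it to Affymetrix MoGene ST arrays and analysed it in R. They deposited log2 values for 41345 features on each of 9 arrays. For background correction, summarisation and normalization, the method was not given in the sources used here. Differences between groups are therefore read within a feature. The check of regional genes against the median of all features, and the choice of the brightest feature, do set different features side by side. A further mutant embryo counted in the series description is not analysed here.

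The platform annotation pairs 23521 features with 1 symbol, 1820 with several and 16004 with none. Symbols were updated through RefSeq (GRCm38.p6, 23328 matched), and the brightest feature was kept for each of 1082 genes with more than 1. This gave 22180 genes, which were tested in limma 3.58.1 (lmFit, eBayes, R 4.3.3), with no covariate or filter and Benjamini-Hochberg adjustment over all of them at 0.05. This fit was first tested on simulated data. Exact two-sided permutation tests used all 126 assignments of the arrays (Python 3.11.15, scipy 1.17.1). The number of arrays limits the precision.

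All members were named, with each gene of the 4 pathway lists at an unadjusted p under 0.05, or the 2 of smallest p. Members and lists were chosen with earlier results of these data known. Alternatives varied the features, filter, normalization, variance model, array weights, pairing, sex, cell composition and arrays used. Those on arrays that stand apart, the median of the genes tested, male signal, mesenchyme genes and gene span were chosen after the data were seen.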

Additional observations from a re-analysis of the deposited data

Results flagged for a closer look

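In 3 of the 20 groups of arrays looked at, 10 genes in 2 genotypes, a single cord lay far from the rest of its group. Chance alone gives about 1 in 20 for a single group. The groups share the same cords, and *Celsr3* and *Vangl1* deviated against each other (r = −0.90). The 3 cases are therefore not independent, and their number cannot be weighed against that rate. *Vangl1* read 6.36 in control 1, where the nearest control read 5.67, a gap of 0.924 of the group's range (n = 5). *Celsr3* read 7.29 in control 1 against 7.99 in the nearest control, a gap of 0.814 of the range (n = 5). *Celsr2* read 9.81 in OC mutant 1 against 9.29 in the nearest mutant, a gap of 0.852 of the range (n = 4). Control 1 was also the control with the lowest neuron gene mean (9.69) and the highest mesenchyme and cartilage gene mean (8.14). Relations of *Vangl1* and *Celsr3* to these means are given above, with all cords and with control 1 and a mutant cord left out. The cause of the *Vangl1* and *Celsr3* values of control 1 was not tested.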

How the results depend on the processing

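None of the 10 members passed the adjusted p of limma under any of the 24 alternatives. *Celsr1*, *Celsr2*, *Celsr3* and *Fzd3* kept a positive log2 fold change in all of these alternatives, which refit the same cords. With 1 array left out at a time, *Celsr1* ranged from 0.28 to 0.47, *Celsr2* from 0.15 to 0.35, *Celsr3* from 0.09 to 0.43 and *Fzd3* from 0.23 to 0.35. The unadjusted limma p of *Fzd3* also rose above 0.05 with the Y-linked mean as a covariate (0.0615, difference 0.27). The other 6 members, whose differences were small, took the opposite sign under some settings. Leaving out 1 array at a time gave −0.020 to 0.14 for *Fzd6*, −0.059 to 0.20 for *Vangl1*, −0.10 to 0.021 for *Vangl2*, −0.092 to 0.052 for *Prickle1*, −0.23 to 0.068 for *Prickle2* and −0.013 to 0.11 for *Ptk7*. The Y-linked covariate gave −0.029 for *Vangl1* and 0.075 for *Vangl2*, and the cords of male signal alone gave −0.033 and 0.070. The progenitor and neuron covariate gave −0.068 for *Vangl1*, 0.0016 for *Prickle2* and −0.029 for *Ptk7*, and the mesenchyme covariate 0.029 for *Prickle1*. Centring on the median of the genes tested gave 0.0044 for *Vangl2* and 0.0098 for *Prickle1*. Without control 1 and OC mutant 3 *Prickle1* had 0.0015 and *Prickle2* 0.030. Removal of the gene-span trend gave −0.0033 for *Ptk7*. The cause of these turns was not tested.

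The labels do not say whether the replicate numbers pair the cords. Same-numbered cords had correlations of −0.38, −0.13, −0.39 and −0.16 between their deviations, and differently numbered cords ran from −0.42 to 0.42. These values cannot show whether a number stands for a shared litter or batch. With the number as a replicate block, over 4 pairs, 1 gene passed in place of 5, *Celsr1* had 0.30 (unadjusted p of limma 0.0729), *Fzd3* 0.29 (unadjusted p of limma 0.0802), *Prickle1* 2.75e-04 and *Ptk7* −0.013.

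The count of all genes past the adjusted p was 5, and became 12 with array weights, 2 with the Y-linked covariate, 61 with the progenitor and neuron covariate, 3 with male signal alone and 44 without control 1 and OC mutant 3. It ranged from 2 to 44 with 1 array left out, 44 being without OC mutant 3. At the unadjusted p, 1067 genes were higher and 1094 lower, against 767 and 1428 after quantile normalization, 758 and 1302 with arrays centred on the median of all features, and 1759 and 670 with arrays centred on the median of the genes tested.

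Without the 2 cords farthest from the median of the marker mean, r turned sign for 5 relations with progenitor genes (*Celsr1* −0.20, *Fzd3* 0.17, *Vangl1* −0.54, *Prickle2* 0.23, *Ptk7* −0.30) and for 3 with neuron genes (*Celsr2* −0.28, *Vangl2* −0.17, *Prickle1* 0.25). None of these 8 had passed the test with all cords.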

Other observations

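The mean log2 value over the 10 core genes was 7.65, 7.70, 7.69, 7.65 and 7.71 in controls 1 to 5, and 7.94, 7.75, 7.72 and 7.79 in OC mutants 1 to 4. The lowest mutant mean (7.716, mutant 3) lay just above the highest control mean (7.711, control 5). Each of the 10 genes on its own had overlapping groups, while 3.94% of all single genes had groups that did not overlap. How often means of 10 other genes would separate was not looked at. No test was made on this mean, because the members were chosen together.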
